A study of Mus musculus with 6 samples.

Results

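The enzymes that write and remove methyl groups on DNA were described in whole mouse ovaries of the descendants of dams given the plasticizer di(2-ethylhexyl) phthalate (DEHP) or vehicle. The 10 genes were chosen by name: Dnmt1, Dnmt3a, Dnmt3b, Dnmt3l, Uhrf1, Tet1, Tet2, Tet3, Tdg and Zfp57. Of these, 9 had a row in the deposited table of 16454 genes, and Zfp57, which encodes a zinc finger protein that protects imprints, had none, so its expression was not analysed here. The control lineage (3 ovaries) came from F0 dams given tocopherol-stripped corn oil, and the DEHP lineage (3 ovaries) from F0 dams given DEHP at 20 µg/kg/day. All ovaries were from CD1 mice at postnatal day 21 in the F3 generation, which were not dosed themselves. Each ovary was sequenced alone as polyadenylated RNA. The labels do not say how many founder dams or litters the ovaries represent, so the p-values rest on how much these 6 ovaries varied, which may be in part technical. The study's title names DNA methylation beside gene expression, and the comparison asks whether transcripts of the methylation machinery differ between descendants of dosed and undosed dams.

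DNA methylation in mammals sits mainly on cytosines that precede guanines (CpG). DNMT1 copies the methylation pattern onto the new strand after replication, guided by UHRF1, which binds hemimethylated CpG. DNMT3A and DNMT3B set methylation on unmethylated sites, and DNMT3L, which has no catalytic activity, stimulates them. The TET enzymes oxidize 5-methylcytosine, and the glycosylase TDG removes the most oxidized forms for base excision repair. In growing oocytes DNMT3A with DNMT3L sets maternal imprints, while in somatic cells DNMT1 and UHRF1 are abundant during S phase.

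The genes differ in the CpG content of their own starts, shown here because CpG is the substrate of the encoded enzymes. RefSeq start positions on GRCm38.p6 were matched for all 10 genes by symbol, and the 250 bases before each start were searched for the letters CG, which read the same on both strands. Over 32851 such windows of all genes the median was 6 CG. Windows of the 10 genes held between 2 and 51. Dnmt1 has 3 annotated starts. The farthest upstream window, chr9:20959889-20960138 (minus strand), held 2 CG, while that of the start farthest downstream held 26, and 9.6% of all windows held at least as many. The oocyte form of DNMT1 is known to begin from a start upstream of the somatic one, and values per gene do not show which start the transcripts used. The window of Dnmt3l at chr10:78049592-78049841 (plus strand) held 4 CG, that of Dnmt3b at chr2:153649199-153649448 (plus strand) held 21 and that of Tet2 at chr3:133544391-133544640 (minus strand) held 51, which 0.1% of all windows reached. In these 4 windows, 5′ to 3′ on the strand of the gene, the capitals mark CG.
Dnmt1 upstream: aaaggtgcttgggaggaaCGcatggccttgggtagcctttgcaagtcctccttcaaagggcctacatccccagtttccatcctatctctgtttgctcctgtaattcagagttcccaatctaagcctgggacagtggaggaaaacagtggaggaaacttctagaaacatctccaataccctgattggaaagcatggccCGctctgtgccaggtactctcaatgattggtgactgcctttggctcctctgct
Dnmt3l upstream: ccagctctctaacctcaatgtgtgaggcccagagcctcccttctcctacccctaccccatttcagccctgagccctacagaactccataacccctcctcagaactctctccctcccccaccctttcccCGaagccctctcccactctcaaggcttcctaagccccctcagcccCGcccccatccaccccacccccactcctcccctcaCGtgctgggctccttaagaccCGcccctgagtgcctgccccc
Dnmt3b upstream: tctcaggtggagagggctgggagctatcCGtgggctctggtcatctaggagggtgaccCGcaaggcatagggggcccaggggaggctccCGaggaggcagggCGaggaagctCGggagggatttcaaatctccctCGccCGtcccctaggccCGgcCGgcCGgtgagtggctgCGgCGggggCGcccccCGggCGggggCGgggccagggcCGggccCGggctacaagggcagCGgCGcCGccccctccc
Tet2 upstream: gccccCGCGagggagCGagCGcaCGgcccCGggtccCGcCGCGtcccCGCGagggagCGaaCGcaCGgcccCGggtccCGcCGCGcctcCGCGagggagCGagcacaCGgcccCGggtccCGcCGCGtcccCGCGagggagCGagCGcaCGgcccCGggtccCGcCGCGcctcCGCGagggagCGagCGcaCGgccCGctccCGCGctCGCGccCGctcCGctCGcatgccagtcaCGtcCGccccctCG

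The deposited values are log2 CPM (read counts scaled to library size) from which the authors had removed a surrogate variable, an estimated nuisance direction across samples. CPM below are 2 to the power of those values. Within groups the values filled 3 directions in place of 4, and the empty direction had weights of -0.60 on DEHP replicate 1 and 0.75 on DEHP replicate 3. Reads per library are unknown, since the table holds no counts, and the summed CPM was 979868 to 1026735. Across genes DEHP replicates 1 and 3 correlated at 0.998, and all other pairs of ovaries at 0.978 to 0.989. Defining ovarian markers were present: summed over 9 granulosa markers the ovaries had 7196 to 9229 CPM, and over the 21 measured of 22 oocyte markers 1744 to 2393 CPM. In whole ovaries, fewer cells of a type and less RNA per cell cannot be told apart.

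Transcripts of none of the 9 measured genes passed the test for a difference between the lineages. By limma with Benjamini-Hochberg adjustment over all genes, 0 of 9 passed an adjusted p of 0.05, where 0.0425% of all genes did. Likewise 0 of 9 had an unadjusted p under 0.05, against 8.78% of all genes. Mean levels were lower in the DEHP lineage for 5 members and higher for 4, against 53.1% lower over all genes. The median log2 fold change was -0.08 for the members and -0.01 for all genes, and the members' differences ranged in size from 0.03 (Tet2) to 0.33 (Dnmt3l).

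**Figure D1:**
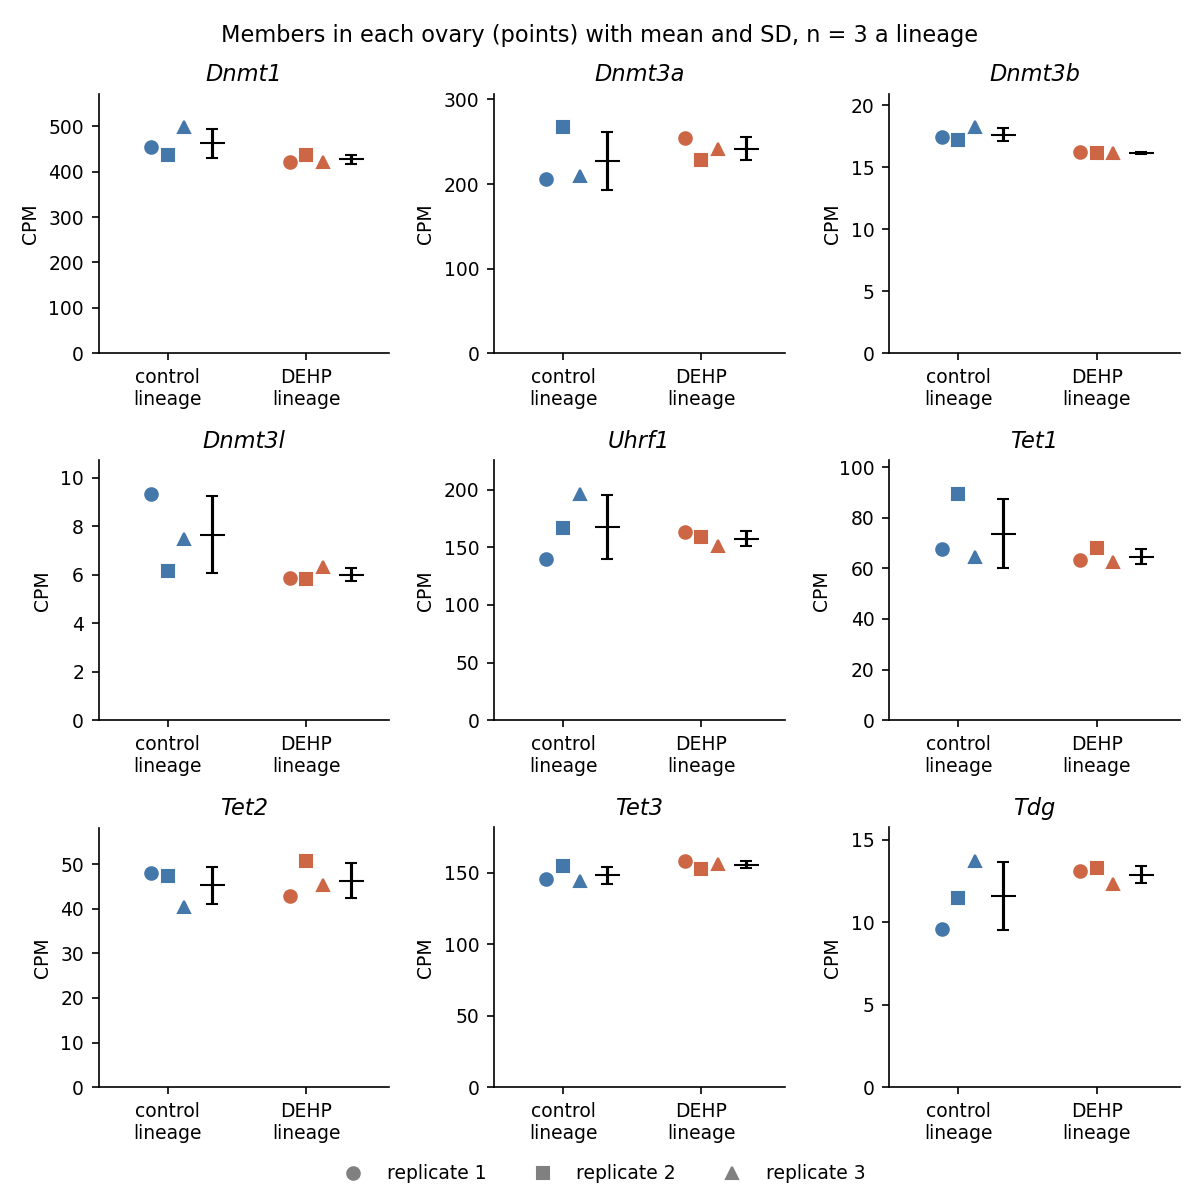
CPM of each measured member in each ovary (vertical axes in CPM, starting at 0), with replicates 1 to 3 as circle, square and triangle and the mean ± SD beside them (n = 3 a lineage). The lineages overlap in every panel except Dnmt3b, where the DEHP ovaries are at 16.1 to 16.2 CPM and the control ovaries at 17.2 to 18.2.

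Among the maintenance genes, Dnmt1 (Entrez 13433, chromosome 9, 20907206 to 20959888) was at 455, 436 and 498 CPM in control replicates 1, 2 and 3 and at 422, 438 and 422 CPM in the DEHP ovaries. DEHP replicate 2 lay above control replicate 2, so the groups overlapped. The log2 fold change of Dnmt1 was -0.11 (SE 0.083, 95% interval -0.31 to 0.08, limma adjusted p = 0.738), which bounds the DEHP lineage between 0.808 and 1.06 times the control level. Uhrf1 (chromosome 17, 56303337 to 56323486) was at 140, 167 and 196 CPM in the control ovaries and at 163, 159 and 151 CPM in the DEHP ovaries. The lowest and the highest ovary were both controls, with the DEHP lineage between them. Its log2 fold change was -0.08 (SE 0.12, limma adjusted p = 0.878), and its sign turned without control replicate 3 (0.04). Without DEHP replicate 3 it was -0.05 as a plain difference of means and 0.11 with the covariate for the empty direction kept, and the ovaries that remain no longer balance that covariate.

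The spread of Uhrf1 ran beside that of dividing-cell markers. As log2 deviations from the 6-ovary mean, Uhrf1 was at -0.21, 0.05 and 0.27 in the control ovaries, and the median of 17 S phase and division markers was at -0.15, 0.05 and 0.20. In the DEHP ovaries Uhrf1 stood at 0.01, -0.03 and -0.10 and the markers at 0.00, 0.03 and -0.05. Dnmt1 ran less beside them, at 0.03, -0.03 and 0.16 in the control ovaries and at -0.07, -0.02 and -0.07 in the DEHP ovaries. Among the controls it was lowest in replicate 2, while the markers were lowest in replicate 1. Of the 17 markers, 8 had higher and 9 lower means in the DEHP lineage. The 17 markers summed to 2504 to 3132 CPM in the control and 2545 to 2763 CPM in the DEHP lineage, and 0 of them passed the adjusted p. Their part in the level of Uhrf1 was not tested.

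Of the de novo methyltransferases, Dnmt3a (chromosome 12, 3801559 to 3914443) was at 206, 267 and 209 CPM in the control ovaries and at 255, 228 and 242 CPM in the DEHP ovaries. Control replicate 2 was the highest of the 6 ovaries, and the other 2 controls were the lowest. The log2 fold change was 0.10 (SE 0.12, 95% interval -0.17 to 0.37, limma adjusted p = 0.838). Without control replicate 2 it was 0.22, with an unadjusted limma p of 0.045 and an adjusted p of 0.609, and it was 0.01 without DEHP replicate 1 (0.06 as a plain difference of means), 0.03 without control replicate 1 and 0.04 without control replicate 3. Macrophage markers, 4 of 4 measured, were lowest in control replicate 2. They summed to 10.75 CPM there, against 20.56 to 37.82 CPM in the other ovaries. Smooth muscle and endothelial markers were highest in control replicate 2, at 1735 and 261.5 CPM in sum. The median log2 deviation of theca and interstitial markers was highest there too, at 0.67. Their sum was not, at 621.2 CPM there against 903.3 CPM in control replicate 3. Cyp11a1, a marker of that list, was lowest of the 6 ovaries in control replicate 2, at 99.3 CPM. The part of these markers in the level of Dnmt3a was not tested.

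Dnmt3b (chromosome 2, 153649411 to 153687730) was the 1 member whose groups did not overlap. It was at 17.4, 17.2 and 18.2 CPM in the control ovaries and at 16.2, 16.1 and 16.1 CPM in the DEHP ovaries. Over all genes, 22.9% had groups that did not overlap, and in 12.2% the DEHP lineage was the lower one. The log2 fold change of Dnmt3b was -0.12 (SE 0.10, 95% interval -0.37 to 0.12, limma adjusted p = 0.766). The SD of its log2 CPM was 0.042 among control ovaries and 0.0042 among DEHP ovaries, and limma's standard error is larger than these SDs alone would give because it borrows the spread of genes at a like level. In GENCODE's transcripts of the same build, 13.48% of the 31-base words of Dnmt3b also occur in Dnmt3c, which had no row.

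Dnmt3l (chromosome 10, 78042287 to 78063622), the cofactor gene of germ cells, had the largest difference of the members. It was at 9.32, 6.16 and 7.48 CPM in the control ovaries and at 5.86, 5.83 and 6.32 CPM in the DEHP ovaries. Control replicate 1 stood highest, while control replicate 2 lay below DEHP replicate 3. The log2 fold change was -0.33 (SE 0.20, 95% interval -0.80 to 0.13, limma adjusted p = 0.675). As a plain difference of means with 1 ovary left out it ranged from -0.48 without control replicate 2 to -0.18 without control replicate 1, and with the covariate for the empty direction kept it reached -0.58 without DEHP replicate 3.

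Among the controls, oocyte markers were lowest in replicate 2, as was Dnmt3l. As log2 deviations from the 6-ovary mean, Dnmt3l was at 0.47, -0.13 and 0.15 in control replicates 1 to 3, and the median of 21 oocyte markers at 0.23, -0.14 and 0.23. In the DEHP ovaries Dnmt3l was at -0.20, -0.21 and -0.09 and the oocyte median at -0.04, -0.24 and -0.03. Of the 21 oocyte markers, 19 had a lower mean in the DEHP lineage and 2 a higher one (median log2 fold change -0.21), against 53.1% lower over all genes. By limma 0 of the 21 passed the adjusted p. Over all genes, 4.02% had an unadjusted limma p under 0.05 with a lower mean. Of the 21 markers 4 had one, and 0 had one with a higher mean. Their summed level was 1906 to 2393 CPM in control and 1744 to 1936 CPM in DEHP ovaries, and their part in the level of Dnmt3l was not tested. Dnmt3l overlaps Aire over 1324 bases in RefSeq's annotation. No source used here gives the strand setting of the counting, and Aire itself was at 0.74 to 1.27 CPM.

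**Figure D2:**
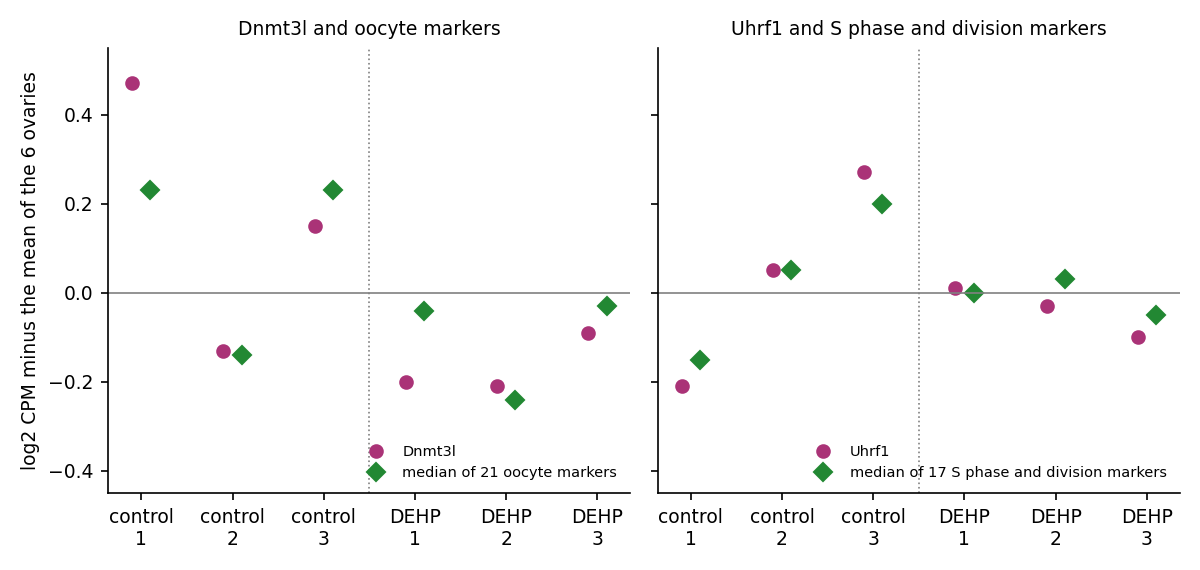
Log2 CPM minus the mean of the 6 ovaries (vertical axis) in each ovary, for Dnmt3l with the median of 21 oocyte markers (left) and for Uhrf1 with the median of 17 S phase and division markers (right). Gene points are circles and marker medians diamonds. Among the controls, Dnmt3l and the oocyte markers are both lowest in replicate 2, and Uhrf1 and the division markers are both lowest in replicate 1 and highest in replicate 3.

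The TET genes, which encode the oxidizing enzymes, showed no common direction. Tet1 (chromosome 10, 62804570 to 62887469) was at 67.5, 89.2 and 64.5 CPM in the control ovaries and at 63.3, 67.9 and 62.6 CPM in the DEHP ovaries. Control replicate 2 stood above the other 5 ovaries, which lay within 62.6 to 67.9 CPM. The log2 fold change of Tet1 was -0.18 (SE 0.13, limma adjusted p = 0.733), and it was -0.03 without control replicate 2.

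Tet2 (chromosome 3, 133463677 to 133545136) was at 48.0, 47.3 and 40.4 CPM in the control ovaries and at 42.8, 50.6 and 45.4 CPM in the DEHP ovaries. Its difference of 0.03 (log2, SE 0.11, limma adjusted p = 0.94) was the smallest of the members and turned sign without control replicate 3 (-0.05) or without DEHP replicate 2 (-0.04, or -0.03 as a plain difference of means). Tet2 was highest in DEHP replicate 2 and lowest in control replicate 3. The 4 adipocyte markers, read as a sign of attached fat, were also highest there in sum, though Plin1 and Lep, 2 of the 4, were highest in control replicate 1. Their sum was 28.11 to 74.76 CPM in the control ovaries, lowest in replicate 3, and 18.9 to 98.51 CPM in the DEHP ovaries. Their part in the level of Tet2 was not tested.

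Tet3 (chromosome 6, 83362373 to 83457208), whose protein oxidizes the paternal genome in the zygote, had the smallest range over the 6 ovaries of the members, 0.14 on the log2 scale. It was at 146, 155 and 144 CPM in the control ovaries and at 158, 153 and 156 CPM in the DEHP ovaries. Only control replicate 2 reached into the DEHP range. The log2 fold change was 0.07 (SE 0.068, limma adjusted p = 0.797). The 95% interval of -0.09 to 0.23 bounds the DEHP lineage between 0.94 and 1.17 times the control level, the narrowest bounds of the 9 genes.

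Tdg (chromosome 10, 82629814 to 82650799) was at 9.61, 11.5 and 13.7 CPM in the control ovaries and at 13.1, 13.3 and 12.3 CPM in the DEHP ovaries. The control ovaries spanned the whole range, and the log2 fold change was 0.17 (SE 0.16, 95% interval -0.22 to 0.55, limma adjusted p = 0.801). As a plain difference of means it was 0.04 without control replicate 1 and 0.29 without control replicate 3, and with the covariate kept it was 0.40 without DEHP replicate 3. Its separate level is uncertain, since 41.84% of its 31-base words occur in other genes, 37.1% in Tdg-ps, which had no row, and 17.72% in Gm9855, a transcribed pseudogene. Gm9855 was at 22.8, 29.1 and 32.1 CPM in the control ovaries and at 27.8, 27.1 and 25.7 CPM in the DEHP ovaries. The sum of Tdg and Gm9855 was 39.6 ± 6.8 CPM in the control and 39.7 ± 1.6 CPM in the DEHP lineage (SD, n = 3 each), a log2 difference of 0.02 (exact permutation test, two-sided, p = 0.9, smallest possible 0.1). Uhrf1 shares 24.25% of its words, most of them (21.88%) with Gm5648, which had no row. For the other 6 members besides Dnmt3b the share was at most 1.23%.

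**Figure D3:**
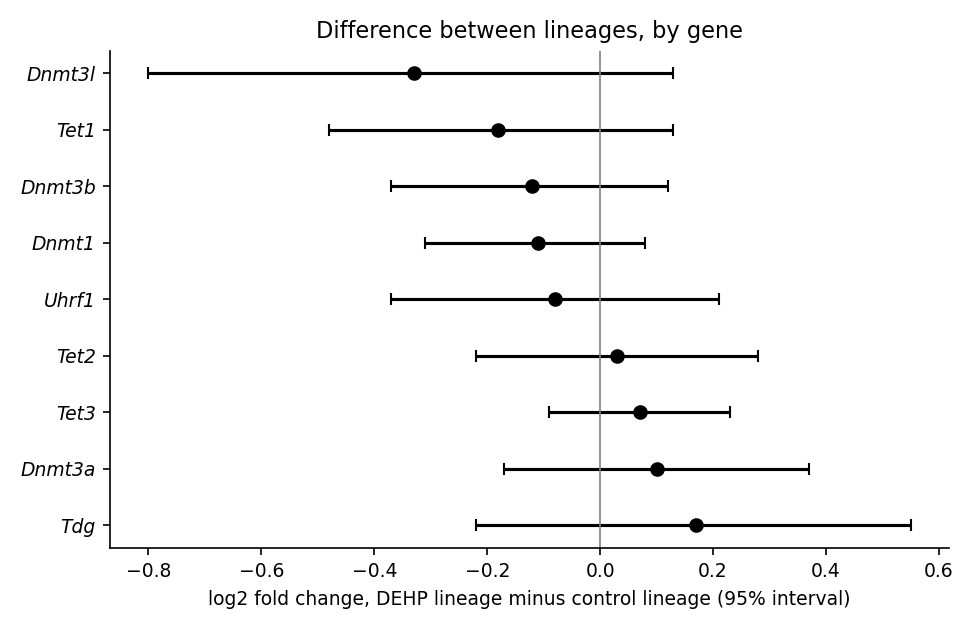
Log2 fold change of each measured member, DEHP lineage minus control lineage (horizontal axis), with the 95% interval of the limma fit over 3 ovaries a lineage. Every interval holds 0, from Dnmt3l at -0.33 (-0.80 to 0.13) to Tdg at 0.17 (-0.22 to 0.55).

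All 9 members varied less among DEHP ovaries than among control ovaries. The SD of the log2 CPM was smaller in the DEHP lineage for 9 of 9 members and for 69.6% of all genes, and the median ratio of the DEHP SD to the control SD was 0.248 for the members and 0.61 for all genes. The empty direction weighs most on DEHP replicates 1 and 3 (-0.60 and 0.75), so any variation removed along it lay mainly among the DEHP ovaries. How much was removed is not known, since the values before the removal are not available here. Its part in the smaller spread, and a difference in spread between the lineages before the removal, were not tested. In 3 of the 9 members both the highest and the lowest ovary were controls, as in 27.4% of all genes.

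Levels were compared between genes only per length, as CPM per kilobase of annotated exon, averaged over the 6 ovaries. Dnmt1 was highest at 60.4 (57.3 to 67.5 over ovaries), followed by Uhrf1 at 38.2 (32.9 to 46.0). Dnmt3a came next at 14.1 (12.4 to 16.0) and then Tet3 at 9.11 (8.61 to 9.46), Tet1 at 4.47 (4.05 to 5.77) and Dnmt3b at 3.30 (3.15 to 3.56). Tet2 at 2.71 (2.4 to 3), Dnmt3l at 2.28 (1.95 to 3.12) and Tdg at 2.28 (1.79 to 2.55) were lowest. The ranges of neighbours in this order did not overlap from Dnmt1 down to Tet2, and those of Tet2, Dnmt3l and Tdg did. An alternative chosen after seeing the data took the length of the longest coding transcript in place of all exons. Tet2 then moved from 2.71 to 4.98 and overlapped Tet1 at 4.81 (4.36 to 6.21). Dnmt3l moved to 3.75 (3.2 to 5.11) and overlapped both Dnmt3b (3.73 to 4.21) and Tet1. Dnmt1, Uhrf1, Dnmt3a and Tet3 kept the leading places in that order. The places of Tdg and Uhrf1 are less certain, since part of their sequence occurs in other genes.

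**Figure D4:**
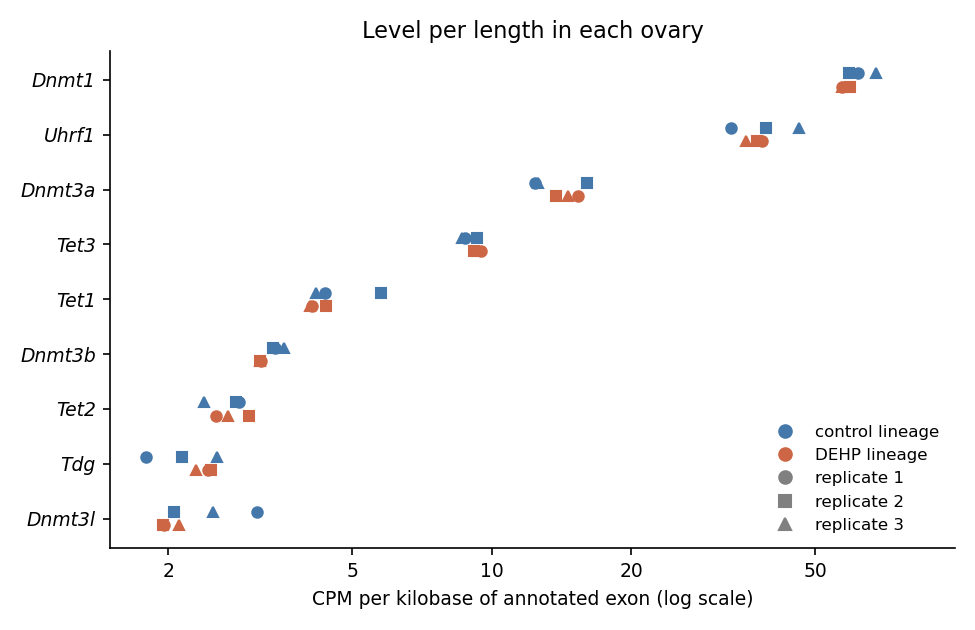
CPM per kilobase of annotated exon (log axis) for each measured member in each ovary, control lineage above and DEHP lineage below each gene's line, with replicates as circle, square and triangle. Dnmt1 and Uhrf1 lead at means of 60.4 and 38.2, and Dnmt3l and Tdg are lowest, both at 2.28.

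The balance between members within an ovary was compared as 6 log2 ratios, with exact two-sided permutation tests that cannot go below p = 0.1 for 3 against 3 ovaries. Per kilobase, Dnmt1 stood at 3.04 to 4.19 times the sum of Dnmt3a and Dnmt3b. The log2 of this ratio, taken on CPM, differed by -0.19 between the lineages (exact p = 0.4), and by -0.09 to -0.35 with 1 ovary left out. The sum of the 3 TET genes per kilobase was 0.182 to 0.228 times the sum of Dnmt1, Dnmt3a and Dnmt3b. The log2 of this ratio differed by 0.05 on CPM (exact p = 0.8) and by 0.07 per kilobase (exact p = 0.7). Dnmt3a per kilobase was 3.52 to 4.83 times Dnmt3b, with a log2 difference of 0.22 (exact p = 0.3) that was 0.14 to 0.36 with 1 ovary left out. Dnmt3l to Dnmt3a differed by -0.43 (exact p = 0.3), and by -0.21 to -0.69 with 1 ovary left out. For Tet3 to Tet1 plus Tet2 the difference was 0.17 (exact p = 0.2) and for Uhrf1 to Dnmt1 it was 0.03 (exact p = 0.9). Adjusted over the 6 ratios, the exact permutation p values were 0.6 or 0.9.

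Other genes of the pathway were read from 5 lists, of which 81 of 86 genes had a row. By limma 0 of the 81 passed an adjusted p of 0.05 over the 6 ovaries, and 8 had an unadjusted p under 0.05, 2 higher and 6 lower in the DEHP lineage. Over all genes 8.78% had such a p, and 4.02% had it with a lower mean. Means were higher for 28 of the 81 genes and lower for 53, against 53.1% lower over all genes, and the median log2 fold change was -0.05. The DEHP ovaries lay above all controls for 5 of the 81 genes and below all controls for 9. Over all genes these shares were 10.8% and 12.2%.

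In the maintenance list (9 of 9 measured, median log2 fold change -0.08), 1 gene had an unadjusted limma p under 0.05, against 8.78% of all genes. Cdca7l, a paralog of the chromatin factor gene Cdca7, was at 46.8, 47.8 and 58.8 CPM in the control ovaries and at 40.3, 45.2 and 39.9 CPM in the DEHP ovaries, a log2 fold change of -0.29 (SE 0.11, limma adjusted p = 0.558). Lig1, the DNA ligase of replication, had a log2 fold change of -0.09 and Cdca7 one of -0.15, and both overlapped between the lineages.

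Among genes of imprint protection and targeting (14 of 15 measured, median -0.05), 0 had an unadjusted limma p under 0.05 and 11 had lower means. Over all genes these shares were 8.78% and 53.1%. Nlrp2, a maternal effect gene, was at 27.9, 22.0 and 27.2 CPM in the control ovaries and at 22.9, 16.4 and 22.0 CPM in the DEHP ovaries (log2 fold change -0.34, limma adjusted p = 0.611). Kdm1b, the histone demethylase needed for imprint setting in oocytes, was at 94.2, 75.9 and 93.5 CPM and at 81.6, 66.4 and 80.3 CPM (log2 fold change -0.21, limma adjusted p = 0.669). Both were lowest in DEHP replicate 2 and, among the controls, in replicate 2, as were the oocyte markers, whose part was not tested here either. Setdb1, a histone H3 lysine 9 methyltransferase, had no overlap between the lineages, at 116 to 128 CPM in the control and 129 to 134 CPM in the DEHP ovaries (log2 fold change 0.10, limma adjusted p = 0.727).

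Methyl-CpG readers (10 of 10 measured) had 7 higher and 3 lower means, against 53.1% lower over all genes, and a median of 0.05. Of the 10 readers, 1 had an unadjusted limma p under 0.05, against 8.78% of all genes. Mbd6 was at 85.1, 83.7 and 85.8 CPM in the control ovaries and at 95.9, 106 and 97.9 CPM in the DEHP ovaries, a log2 fold change of 0.23 (SE 0.072, 95% interval 0.07 to 0.40) with an unadjusted limma p of 0.0132 and an adjusted p of 0.491. Mbd1, a transcriptional repressor that binds methylated CpG, had a log2 fold change of 0.17 and the zinc finger gene Zbtb38 one of 0.16, and neither overlapped between the lineages. In all, 3 of the 10 readers had DEHP ovaries above all controls, where 10.8% of all genes did. Over the 5 lists together it was 5 of 81 genes.

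Among demethylation partners and base excision repair genes (24 of 25 measured, median -0.02), 2 had an unadjusted limma p under 0.05, against 8.78% of all genes. The DEHP ovaries lay below all controls for 5 of the 24 and above for 1, against 12.2% and 10.8% of all genes. Neil3, a DNA glycosylase gene, was at 59.6, 49.1 and 52.3 CPM in the control ovaries and at 39.9, 41.7 and 41.9 CPM in the DEHP ovaries. Its log2 fold change of -0.38 (SE 0.095, 95% interval -0.60 to -0.16) had an unadjusted limma p of 0.00478, the smallest of the 5 lists, and an adjusted p of 0.396. Apex1, the endonuclease that cuts at abasic sites, was at 113, 106 and 118 CPM and at 97.6, 95 and 97.4 CPM (log2 fold change -0.22, SE 0.072, limma adjusted p = 0.491). Gadd45g, a stress response gene, was at 21, 25 and 21 CPM and at 20.5, 14.6 and 18.8 CPM (log2 fold change -0.32, limma adjusted p = 0.611).

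The methyl donor cycle list had 24 of 27 genes measured, without Mat2a, Bhmt and Bhmt2, and a median of -0.09. Of the 24 genes, 19 had lower and 5 higher means, against 53.1% lower over all genes. An unadjusted limma p under 0.05 was found for 4, against 8.78% of all genes. The DEHP ovaries lay below all controls for 3 and above for 0, against 12.2% and 10.8% of all genes. Mtap, of methionine salvage, was at 62.6, 67.7 and 70.2 CPM in the control ovaries and at 58.3, 52.1 and 55.6 CPM in the DEHP ovaries (log2 fold change -0.27, SE 0.084, limma adjusted p = 0.491). Amd1, which encodes the decarboxylase of S-adenosylmethionine, had a log2 fold change of -0.38 (limma adjusted p = 0.514), but 82.79% of its 31-base words occur in other genes. Gnmt, glycine N-methyltransferase, was at 0.33, 0.394 and 0.544 CPM in the control ovaries and at 2.93, 0.51 and 1.88 CPM in the DEHP ovaries (log2 fold change 1.77, SE 0.65, limma adjusted p = 0.524). DEHP replicate 2 lay within the control range, and at such low values the fold change depends on the prior count used in making the log2 CPM, which no source here states. Mat1a, which encodes an enzyme that makes S-adenosylmethionine and is named after its values were seen, was at 5.76, 6.04 and 6.53 CPM in the control ovaries and at 17.0, 5.85 and 13.4 CPM in the DEHP ovaries. DEHP replicate 2 lay within the control range there too. Of the marker lists, which held none for liver, the erythroid one had the same pattern in its sum. It was at 61.23, 70.8 and 116.4 CPM in the control ovaries and at 266.3, 108.0 and 196.9 CPM in the DEHP ovaries. Serpina1b, outside the lists and also named after its values were seen, was highest in DEHP replicates 1 and 3. Its log2 CPM was 2.84 and 2.40 there, 0.10 in DEHP replicate 2 and -1.85 to -1.09 in the control ovaries. The part of erythroid cells, or of other tissue, in the levels of Gnmt and Mat1a was not tested. Mat1a had a log2 fold change of 0.85 (SE 0.37, limma adjusted p = 0.571). Without DEHP replicate 2 and without the covariate it was 1.31 with a limma adjusted p of 0.049, a fit that counts the removed direction as residual spread.

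**Figure D5:**
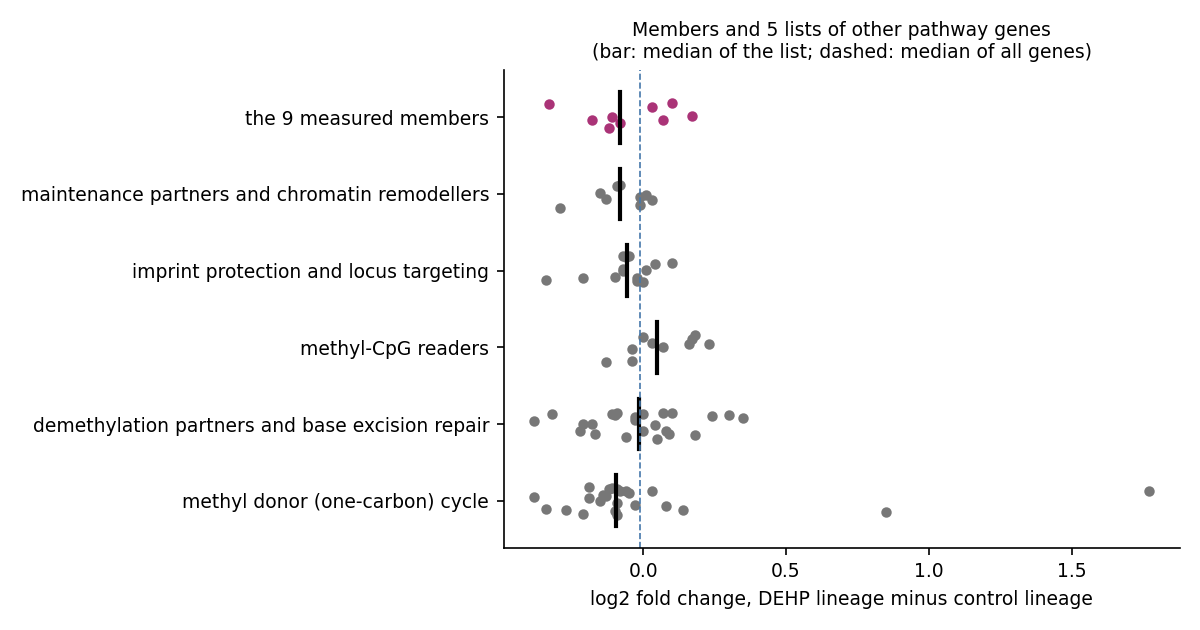
Log2 fold change, DEHP lineage minus control lineage (horizontal axis), of the 9 measured members and of the genes in 5 lists of other pathway genes, 1 point a gene, with the median of each list as a bar and the median of all genes, -0.01, as a dashed line. The members' median is -0.08, the medians of the lists lie between -0.09 and 0.05, and the point at 1.77 is Gnmt.

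The authors' deposited table gave the members the same directions. Its log2 fold change for Dnmt3l was -0.35 with an authors' adjusted p of 0.883, the smallest in that table among the 9 members, and that for Tet2 was 0.03 and had the largest authors' adjusted p in that table among them.

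Across the 6 ovaries, the genes most like Dnmt3l in pattern included Mettl25 and Adat3, with Pearson correlations of 0.998 and 0.997, and those most like Dnmt1 were Carhsp1, Arpc4 and Sf3b5, at 0.999, 0.997 and 0.996. The search covered 12362 genes whose mean log2 CPM was 1 or more, and 97 of these for Dnmt3l and 126 for Dnmt1 had a correlation over 0.95. All values share the 6 libraries and the removed direction.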

How the data were processed

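Polyadenylated RNA of 6 whole ovaries, 3 a lineage, was sequenced with a strand-marking kit from one end of the fragments, per the labels' protocols. The submitters' processing notes name STAR 2.5.3a, Trimmomatic 0.36, featureCounts, Subread 1.5.2, edgeR 3.20.5 and build GRCm38.p6, with settings not given in the sources used here. For each ovary, the authors deposited log2 CPM after removal of a surrogate variable, with their own log2 fold change, signed fold change, p-value and adjusted p-value. Library depth is unknown. In each column all 16454 values were distinct, so whole reads could not be recovered.

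The log2 CPM were fitted here with limma 3.58.1 in R 4.3.3 on all genes (moderated test, mean-variance trend, two-sided, no filter or pseudocount), with the empty within-group direction as a covariate, which leaves 3 residual degrees of freedom. Benjamini-Hochberg adjustment ran over all genes, with a threshold of 0.05. The fit was tested on simulated data. The SDs are of values with the surrogate variable removed and are smaller than the spread between ovaries. Whether that variable also varied between the lineages is not known, and if it did the standard errors are too small. Ratios were tested with exact permutation tests. Positions and starts are RefSeq's, exon lengths and 31-base words GENCODE's (release M21), both on GRCm38. The members and lists were chosen with earlier results of these data known. Named were all members, the 3 genes with the smallest p of each list, the 3 genes most like 2 members in pattern, and genes that overlap or copy a member. Of these, 1 gene is not reported here. Alternatives were 4 residual degrees of freedom, a replicate block, no trend, quantile normalization, median centring, log2(CPM + 1), a filter on low values, leaving out each ovary (with and, added after seeing the data, without the covariate) and averaging DEHP replicates 1 and 3.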

Additional observations from a re-analysis of the deposited data

How the results depend on the processing

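By limma, 0 of the 9 members and 0 of the 81 other pathway genes passed an adjusted p of 0.05 in the fit reported and in each of the 15 alternatives planned. In those that leave out 1 ovary, the weights of the removed direction no longer sum to 0 within a lineage, so the values are not plain differences of means. Another 6 fits, chosen after seeing the data, left out 1 ovary without this covariate and count more residual degrees of freedom than the values hold. In these, 0 of the 9 members and 0 to 1 of the 81 other genes passed the adjusted p, the 1 being Mat1a without DEHP replicate 2 (adjusted p = 0.049). Unadjusted, 0 to 3 members were under 0.05 (Uhrf1 without control replicate 1, Dnmt1, Dnmt3a and Dnmt3l without control replicate 2, Tdg without control replicate 3) and 6 to 13 of the other genes. The members ranged from -0.20 to 0.04 for Uhrf1 and from -0.05 to 0.09 for Tet2 (-0.03 without DEHP replicate 2), and the other 7 kept their signs. In the planned fits, the count of members with an unadjusted p under 0.05 was 0, and 0 to 1 with 1 ovary left out, the 1 being Dnmt3a without control replicate 2. Among the other pathway genes that count was 8, against 3 without the mean-variance trend, 12 with 4 residual degrees of freedom, 10 and 11 with the replicate block and 6 to 10 with 1 ovary left out. With 1 ovary left out, the log2 fold change ranged from -0.21 to 0.11 for Uhrf1 and from -0.05 to 0.15 for Tet2, so both signs occurred, with Uhrf1 at 0.04 and 0.11 without control or DEHP replicate 3 and Tet2 at -0.05 and -0.04 without control replicate 3 or DEHP replicate 2. The log2 ratio of the TET genes to Dnmt1, Dnmt3a and Dnmt3b differed by -0.02 to 0.10 and that of Uhrf1 to Dnmt1 by -0.08 to 0.10, with both signs likewise (-0.02 without control replicate 3 and -0.08 without control replicate 1). The other 7 members and 4 ratios kept their signs in every alternative run. Over all genes the count past the adjusted p was 7, against 20 with 4 residual degrees of freedom, 1 without the trend, 3 with quantile normalization or median centring, and 3 to 22 with 1 ovary left out (2 to 35 without the covariate). In the deposited values, ovaries with the same replicate number did not deviate together (correlations across genes of -0.327, -0.00343 and -0.198). This cannot decide whether the numbers pair the ovaries, since the removed surrogate variable may have held an effect that pairs shared. With the replicate block, 0 members were called and the count over all genes was 6 with or without the surrogate direction. The causes of these shifts were not tested. Depth is unknown, so no limit from it can be given. With 3 ovaries a lineage, the intervals of single genes allow changes of up to 0.576 or 1.46 times the control level (Dnmt3l and Tdg).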
